A study of Mus musculus with 24 samples.

Results

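The cytosolic ribosomal proteins were followed in bulk RNA of mouse epididymal white adipose tissue (eWAT). Members were all rows of the deposited expression table whose gene symbol starts with Rpl or Rps and a digit, plus Rpsa and Rplp0 to Rplp2, without the ribosomal S6 kinases and without symbols that mark a pseudogene. The rule found 85 of 16730 rows. Of these, 77 code for core ribosomal proteins, 43 of the large subunit, 3 of its P-stalk and 31 of the small subunit. A further 4 are paralogs of core genes (Rps27l, Rpl22l1, Rpl39l and Rpl36al), 2 are retrogene copies (Rps27rt and Rps23rg1), and 2 only share the name (Rps19bp1, a binding partner of Rps19, and Rpl7l1, a relative of Rpl7 that acts in ribosome assembly). Core genes with other symbols, such as Fau, lie outside the rule.

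Each cytosolic ribosome carries a single copy of nearly every ribosomal protein, so cells make these proteins in matched amounts. Their mRNAs belong to the TOP class: transcription starts at a cytosine followed by an unbroken tract of pyrimidines, and through this tract mTORC1 and Larp1 control translation. Because control lies largely at translation, the amount of mRNA is not the rate of protein synthesis. The mRNAs are abundant in most cell types, and their share of all mRNA differs between the cell types of a tissue, which in adipose tissue include adipocytes, macrophages, endothelium and stromal progenitors.

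The start region is shown for members that the comparisons below turn on, to let the tract be read beside its absence in other members. Of the 85 members, 65 had a promoter window in the RefSeq table for GRCm38.p6, which runs from 250 bases before to 50 bases after the annotated start. Each line below gives the 40 bases before the start and the 20 from it, 5′ to 3′ on the coding strand, and capitals mark the longest run of C and T that touches the 5 bases on either side of the start, where the run holds at least 5 bases, and the first of runs of equal length. In Rps27rt a second run of that length, ctttcc, begins at the start itself and is not in capitals.
Rpl35: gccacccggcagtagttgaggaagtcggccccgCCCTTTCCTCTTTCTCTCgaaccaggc
Rpl28: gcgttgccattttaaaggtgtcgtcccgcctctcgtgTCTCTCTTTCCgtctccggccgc
Rps27: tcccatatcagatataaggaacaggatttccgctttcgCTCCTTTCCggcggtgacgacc
Rps27rt: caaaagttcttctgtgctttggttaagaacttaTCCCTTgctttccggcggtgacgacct
Rpl39: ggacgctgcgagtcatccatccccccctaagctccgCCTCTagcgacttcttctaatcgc
Rps7: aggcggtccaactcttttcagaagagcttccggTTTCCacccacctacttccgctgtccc
Rpl23: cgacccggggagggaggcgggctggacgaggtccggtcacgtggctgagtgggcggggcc
Rps19bp1: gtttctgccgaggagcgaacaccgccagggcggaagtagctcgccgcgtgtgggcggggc
These windows lie at chr2:39005112-39005171, reverse strand (Rpl35), chr7:4792925-4792984, forward strand (Rpl28), chr3:90213629-90213688, reverse strand (Rps27), chr9:114982720-114982779, reverse strand (Rps27rt), chrX:37085203-37085262, reverse strand (Rpl39), chr12:28635934-28635993, reverse strand (Rps7), chr11:97782420-97782479, reverse strand (Rpl23) and chr15:80264287-80264346, reverse strand (Rps19bp1). The runs of Rpl35, Rpl28 and Rps27 held 18, 11 and 9 pyrimidines. A run of at least 8 pyrimidines at this place was found in 25 of the 65 members (38.5%), against 12.4% of 10974 other tested genes and 11.4% of all 27025 genes in the table. The letters CTTTCC, read on the coding strand from 10 bases before to 20 after the start, were in 16.9% of members, 1.49% of the other tested genes and 1.52% of all genes. The letters CCGGAAG, the core of the site bound by ETS factors such as Gabpa, stood on either strand of the whole window in 26 of the 65 members, 18.5% of the other tested genes and 9.93% of all genes. AAGATGGC, which holds the core of the Yy1 site, was found in 9.23%, 4.95% and 3.19%, and TATAAA, 40 to 15 bases before the start, in 1.54%, 1.72% and 2.41%. CTTTCC lies inside many of the pyrimidine runs and is not independent of them. A match is a description of letters, and an annotated start a few bases off the used one hides a run.

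The 24 libraries came from the eWAT of male mice after 20 weeks of feeding, 6 in each of 4 groups. Lama4 fl/fl mice, the controls, carry floxed alleles of Lama4, which codes for the laminin α4 chain of basement membranes, and Lama4 AKO mice carry the same alleles with a Cre recombinase under the adiponectin promoter, which removes exon 3 in adipocytes only. Each genotype was fed either a breeder chow diet from LabDiet or a high-fat diet (HFD) with 45% fat, and the labels give the strain of all mice as LFKO. By the study's figure legends, HFD-fed mice were older at the end of feeding than chow-fed mice. Diet and age at collection therefore cannot be told apart in comparisons between diets. RNA was sequenced from mRNA 3′ ends with QuantSeq, and the whole tissue holds all its cell types, so fewer cells of a type and less RNA per cell cannot be told apart. Nothing in the labels ties the mice of a group to separate litters or cages.

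Library totals lay between 5579590 and 18764516 counts. Levels are given as CPM, which sets counts relative to the TMM-scaled total of the library, and comparisons were made with edgeR's quasi-likelihood test on the counts of all 24 libraries. Lama4 itself was at a median of 91.7 CPM in chow-fed Lama4 fl/fl and 113 in chow-fed Lama4 AKO mice. On HFD it was at 78.7 in Lama4 fl/fl and 44.3 in Lama4 AKO mice, and the ranges overlapped. Knockouts differed from controls by a log2 fold change of 0.11 on chow and -0.69 on HFD (adjusted p = 0.98 and 0.35 by edgeR). HFD against chow gave -1.05 in Lama4 AKO mice (adjusted p = 0.0364 by edgeR). Reads from 3′ ends fall far from exon 3 and so do not check the deletion, and whether it lowers them was not tested. By quantitative PCR the study reported lower Lama4 in eWAT of chow-fed knockouts. All 6 adipocyte markers had counts in every group, with summed levels of 8081 to 41880 CPM. Of 9 genes of epididymal epithelium and germ cells, 2 had a row and neither passed the filter on low counts. Their summed level reached 17.6 CPM in a chow-fed Lama4 fl/fl library and 3.24 CPM in a chow-fed Lama4 AKO library, with group medians of 0 to 0.188 CPM.

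Of the 85 members, 84 passed that filter (at least 1 CPM in at least 3 libraries). Rps23rg1, at a mean of 0.421 CPM, did not. The middle member stood at 397 CPM, 10 members exceeded 1000 CPM and 12 stayed below 100. Rplp1, whose product helps to recruit elongation factors on the P-stalk, was highest at a mean of 2078 CPM, followed by Rps12 at 1773 and Rps20 at 1543, both parts of the small subunit. Its P-stalk partners Rplp2 and Rplp0 stood at 768 and 352 CPM. The 10 highest members together made up 34.2% of the summed member level. The lowest tested were Rpl39l at 0.62 CPM, Rps27rt at 7.42 and Rpl24 at 7.8. Across the 77 core genes the mean level spanned 266-fold.

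**Figure D1:**
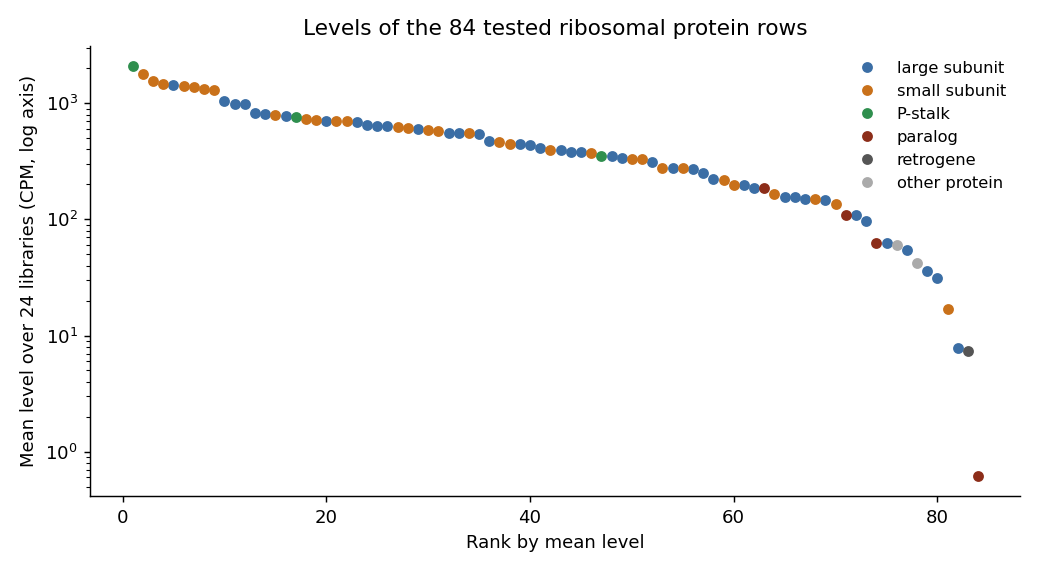
Mean level of the 84 tested members over 24 libraries in CPM (y axis, log scale) against their rank (x axis), coloured by class. Core genes of both subunits fill the upper ranks down to the first paralog, Rps27l, at 187 CPM, and the steep fall at the right holds Rpl24, Rps27rt and Rpl39l.

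Reads of many members can also match other genes. Of the 50-base windows in the last 300 bases of a member's transcript, a median of 56.6% also occurred in transcripts of other genes, many of them annotated as pseudogenes, and a read from such a window has more than a single place to go. For 23 members no window was shared, and for 6 (Rpl10, Rpl9, Rpl36a, Rps27, Rpl5 and Rpl31) all were. The last 2 of these overlap the genes Fam69a and Tbc1d8. Rpl24 shared 81.3% of its windows and Rps27rt 88.4%, so their levels are uncertain, as are those of Rpl35 (96.0%), Rps27a (86.9%) and Rpl30 (80.1%), whereas Rpl39 shared 21.9% and Rpl15, at 35.9 CPM, none. Counts assigned to the 86 rows outside the rule with a ribosomal protein symbol that marks a pseudogene made up 0.0105 to 0.0281% of a library. Pseudogene copies with other kinds of names, among them many of those that share windows, were not in this sum.

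Members took 2.58 to 6.03% of the counts of a library. In percent of all counts, chow-fed Lama4 fl/fl mice had 2.58 at the lowest, 4.6 at the median and 6.03 at the highest, with a mean of 4.68 ± 1.23 (SD, n = 6). Chow-fed Lama4 AKO mice had 2.64, 3.45 and 4.42 (3.5 ± 0.77, n = 6). HFD-fed Lama4 fl/fl mice had 2.97, 4.25 and 5.95 (4.25 ± 1.12, n = 6). The lowest share of all libraries was in a chow-fed control, replicate 1, and this group's range held those of the other 3 groups. HFD-fed Lama4 AKO mice had 4.32, 4.57 and 5.44 (4.75 ± 0.455, n = 6), the narrowest range. No test was made of this share, which is a sum over members and is given as a description only. The members were chosen with earlier results known.

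**Figure D2:**
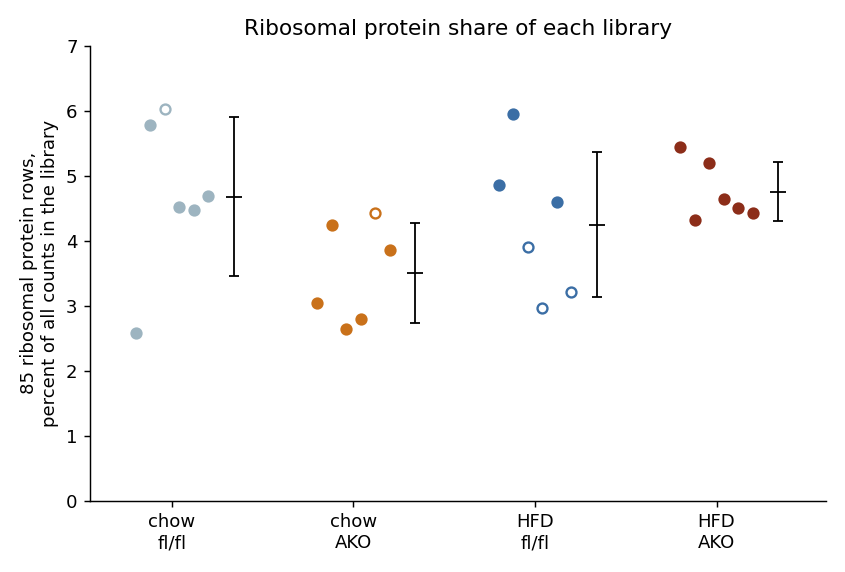
Counts of the 85 members as a percent of all counts (y axis, from 0) in each library of the 4 groups (x axis). Points are libraries, open points the 5 that an alternative set of 19 mice leaves out, and bars the mean ± SD of 6 libraries; the groups overlap, and chow-fed Lama4 AKO libraries end at 4.42%.

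Within groups the members moved together. Over the 24 libraries, with group means removed, the correlation of a member's log2 CPM with the median of the other members had a median of 0.85 over members, and 70 of 84 members were above 0.5. Among 14936 other genes, 18.6% were above 0.5. The points share library and scaling. The highest values belonged to Rps7 (0.97), Rps29 (0.97) and Rpl23 (0.96), which code for proteins of both subunits. The lowest belonged to Rpl6 (-0.25), Rps19bp1 (-0.10) and Rpl35 (-0.10). Rpl6 and Rpl35 are core proteins of the large subunit.

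This common level moved with markers of other cell types. Summed over 8 macrophage markers, all with a row in the table, levels ran from 1469 to 12574 CPM in chow-fed Lama4 fl/fl, 2171 to 11319 in chow-fed Lama4 AKO, 2369 to 16773 in HFD-fed Lama4 fl/fl and 8331 to 17719 in HFD-fed Lama4 AKO libraries. With group means removed, the member median and the log2 macrophage sum had a Pearson r of 0.75 and a Spearman rho of 0.67 over 24 libraries, and r of 0.61 without the 2 libraries farthest in the macrophage sum. Within groups of 6, r was 0.96, 0.66 and 0.78 in the first 3 groups and -0.01 in HFD-fed Lama4 AKO mice. Mast cell markers gave r of 0.66, T cell markers 0.56, adipocyte markers -0.52 and endothelial markers -0.61. The percent of counts from mitochondrially encoded genes gave -0.47 and total counts -0.08. These values, out of 12 relations computed, are descriptions, and the points share library and scaling. The part of cell composition in the comparisons below was not tested.

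**Figure D3:**
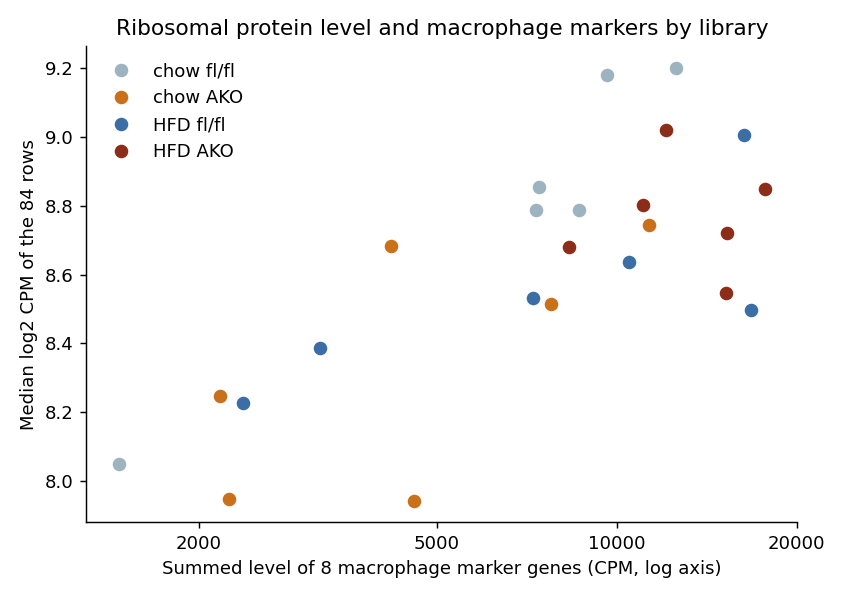
Median log2 CPM of the 84 tested members (y axis) against the summed level of 8 macrophage markers in CPM (x axis, log scale), with each point a library and colours the groups. The chow-fed control at 1469 CPM has a member median of 8.05, and the control at 12574 CPM has 9.20.

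Lama4 AKO was compared with Lama4 fl/fl on chow to ask what the loss of adipocyte LAMA4 does without a dietary load. In the knockouts 82 of 84 members had a lower fitted level, where 50.6% of all 15020 genes tested had a higher one. The median log2 fold change of the members was -0.43, against 0.00 over all genes. Members move together within a library, so here and below they are not independent of each other. Their median log2 CPM per library was 8.81 ± 0.418 in chow-fed Lama4 fl/fl and 8.35 ± 0.356 in chow-fed Lama4 AKO mice (SD, n = 6). The ranges of these library medians overlapped. No member was called by the criteria of the study (a change of 1.5-fold or more with a nominal p no higher than 0.001, and 2 CPM or more on average in the higher group), where 0.113% of all genes were. At a nominal p of at most 0.05, 42 members were lower and 0 higher, where 3.22% and 2.62% of all genes were. None passed a Benjamini-Hochberg adjusted p of 0.05 by edgeR, the lowest being 0.65. The members called numbered 0 with limma-voom and 2 with DESeq2, and 37 and 42 had a nominal p of at most 0.05. Here and below, counts with these tools or with a mouse left out stand without a share of all genes beside them. They do not show whether other genes moved alike.

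Rps27a, which codes for ubiquitin fused to a small subunit protein (chromosome 11, 29545846 to 29548109, GRCm38), had the largest difference. It was at 153, 515 and 811 CPM (lowest, median, highest) in chow-fed Lama4 fl/fl and at 127, 253 and 376 CPM in chow-fed Lama4 AKO mice. The knockouts sat at the low end of the controls, and the control replicate 1 fell among the knockouts. The fitted log2 fold change was -1.03 (standard error 0.306, adjusted p = 0.65 by edgeR). Rpl39, a small protein at the exit tunnel (chromosome X, 37082520 to 37085402), was at 195, 472 and 762 CPM in controls and 179, 267 and 415 CPM in knockouts, fitted at -0.91 (standard error 0.265, adjusted p = 0.65). Rps27, of the small subunit, was at 324, 594 and 875 CPM against 272, 378 and 471 CPM, a difference of -0.68 (standard error 0.203, adjusted p = 0.65). Its windows were all shared with other genes. Rpl23, of the large subunit, went from 378, 1033 and 1375 CPM to 268, 551 and 845 CPM, a difference of -0.88. The groups overlapped for every member, as they did for all but 0.26% of genes.

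The members with a higher fitted level were Rpl6, at 0.08, and Rps19bp1, at 0.03. Large and small subunit genes had the same median difference to within 0.03, at -0.43 and -0.45. By class, 24 of 43 large and 16 of 31 small subunit genes had a nominal p of at most 0.05, and of the P-stalk 0 of 3. The size of the count varied with single libraries, from 25 to 58 members at that p when a mouse was left out. Without the chow-fed control replicate 1, whose members were lowest, 58 members were past that p and 12 were called, and without the chow-fed Lama4 AKO replicate 2, 2 were called. Without the controls 2 or 3, 25 and 27 were past the nominal p, and without the knockouts 3 or 4, 25 in each case. In a set of 19 mice, which an earlier analysis of these data inferred to be those the study kept, the median was -0.46, 0 members were called (0.209% of genes) and 44 were lower at that p (4.02% of genes). The macrophage markers were lower in 8 of 8 fitted values, with a median of -0.55, and none had a nominal p of at most 0.05. T cell markers had 5 fitted values higher and 1 lower, with a median of 0.36, and none at that p. Mast cell markers had 1 higher and 3 lower, with a median of -0.96, and only the higher marker, Kit at 0.76, was at that p.

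The response to the diet was then compared within each genotype. In Lama4 AKO mice 76 of 84 members had a higher fitted level on HFD, beside 49.7% of all genes. These included 31 of 31 small subunit genes. The median log2 fold change of the members was 0.41 against 0.00 over all genes. At an adjusted p of at most 0.05 (edgeR, Benjamini-Hochberg), 13 members rose and 1 fell. These are 14 of 84 members in a comparison where 22.1% of all genes passed, so the share among members was not above that of all genes. At a nominal p of at most 0.05, 31 members were higher and 2 lower, beside 18.2% and 21.6% of all genes. By the study's criteria 0 members were called, beside 4.12% of genes. Limma-voom called 0 and DESeq2 called 2, with 38 and 35 at a nominal p of at most 0.05. The chow-fed knockouts enter both this comparison and the one between genotypes on chow.

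Rpl10, which joins the large subunit at a late step of its assembly, was at 69.6, 126 and 172 CPM on chow and 149, 205 and 234 CPM on HFD. The lower end of the HFD range lay inside the chow range. It rose by 0.74 on the log2 scale (standard error 0.213, adjusted p = 0.0249 by edgeR). Rpl28, whose start region is printed above, was at 106, 182 and 255 CPM and 231, 276 and 294 CPM, and rose by 0.62 (standard error 0.191, adjusted p = 0.0294).

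Rps27a had the largest change. It was at 127, 253 and 376 CPM on chow and 382, 476 and 611 CPM on HFD, without overlap, and rose by 0.96 (standard error 0.306, adjusted p = 0.0328). Ranges did not overlap for 3 of 84 members, beside 6.86% of all genes. The P-stalk gene Rplp0, often used as a reference gene, rose by 0.45 (standard error 0.157, adjusted p = 0.0423), from a median of 298 to 425 CPM. Rpl30, Rpl15, Rpl31, Rps2, Rpl12, Rps7 and Rps23 also rose, by 0.44 to 0.84. The paralog Rpl39l had a fitted value of 0.86 at levels of 0 to 1.89 CPM and did not pass (adjusted p = 0.4 by edgeR).

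The member that fell was Rps19bp1, which is no ribosomal protein. It was at 35, 49.2 and 62.8 CPM on chow and at 20.9, 30.8 and 40.3 CPM on HFD, a fitted change of -0.68 (standard error 0.239, adjusted p = 0.0446 by edgeR). Rpl6 had a fitted difference of -0.45 that missed the adjusted threshold (adjusted p = 0.059). In the 19 mice the median was 0.46. Then 3 members were called, Rpl10 and Rpl31 among them, beside 15.7% of genes, 46 members were higher and 3 lower at the nominal p, beside 23.7% and 25.5%, and 36 members passed the adjusted p, beside 40.3%. Without the chow-fed knockout replicate 5, 2 members were called. In the same comparison, 5 of 8 macrophage markers were higher at the nominal p, with a median of 1.32 on the log2 scale, 5 of 6 adipocyte markers were lower, with a median of -0.98, and 4 of 4 mast cell markers were higher, with a median of 3.35.

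In Lama4 fl/fl mice the members tended the other way. The median log2 fold change for HFD against chow was -0.25 against -0.01 over all genes, and 64 of 84 members had a lower fitted level. Over all genes, 48.6% had a higher fitted level. None was called, beside 0.173% of genes, and none passed the adjusted p by edgeR (lowest 0.45). At a nominal p of at most 0.05, 13 members were lower and 0 higher, beside 3.52% and 5.49% of all genes. Limma-voom and DESeq2 called 0, with 9 and 13 at the nominal p. No member had groups without overlap, beside 0.213% of genes.

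Rpl35, a protein at the exit tunnel (chromosome 2, 39001580 to 39005624), had the lowest p and the largest difference. It was at 71.1, 213 and 299 CPM on chow and 67.2, 109 and 171 CPM on HFD. In the HFD-fed controls, replicates 1, 2 and 5 lay at 67.2 to 78.0 CPM and replicates 3, 4 and 6 at 140 to 171 CPM. The fitted log2 fold change was -0.79 (standard error 0.273, adjusted p = 0.45 by edgeR). Rps27 differed by -0.58 (adjusted p = 0.45) and Rpl9, of the large subunit, by -0.41 (adjusted p = 0.45). Rpl34 and Rps14 had the next largest differences, -0.65 and -0.64. In HFD-fed controls Rps14 ran from 472 to 2234 CPM, wider than its range of 1040 to 2172 CPM on chow.

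This comparison also depended on the choice of mice. The 19 mice hold 3 HFD-fed controls, replicates 1, 2 and 5. With them the median was -0.07, 8 members were called, beside 11.8% of genes, and 15 members were higher and 8 lower at the nominal p, beside 19.5% and 21.9%. Rpl13, Rps20, Rps27rt, Rps9, Rps3, Rpl18 and Rpl8 were then higher, by 1.33 (Rpl13) to 0.71 (Rpl8) on the log2 scale, and Rpl35 was lower, at -1.60 (adjusted p = 2.2e-04 by edgeR). These 7 had fitted values of 0.27 to 0.54 with 24 mice. With 24 mice, 33 members were past the nominal p without the chow-fed control replicate 1, 29 without the HFD-fed control 2, 5 without the chow-fed control 2 and 6 without the HFD-fed control 5. A single member was called without the chow-fed control 1 or 3. Of 8 macrophage markers 6 had a higher fitted level on HFD, with a median of 0.07, and none had a nominal p of at most 0.05. Of 4 mast cell markers 4 had a higher fitted level, with a median of 1.69, and 3 were past that p, Kit at 1.15, Mcpt4 at 2.26 and Cma1 at 1.86 on the log2 scale. Their part in the result was not tested.

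Between genotypes on HFD, the question was whether the loss of adipocyte LAMA4 changes the depot under this diet. The members differed little: the median log2 fold change was 0.13, against -0.03 over all genes, with 62 of 84 higher, beside 47% of all genes. None was called (0.173% of genes) and none passed the adjusted p by edgeR (lowest 0.29). At the nominal p 4 were higher and 1 lower, beside 5.83% and 8.99% of genes. Limma-voom and DESeq2 called 0, with 6 and 4 at the nominal p. No groups were without overlap, beside 0.533% of genes.

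Rpl6 had the lowest p. It was at 88.1, 94.6 and 169 CPM in HFD-fed Lama4 fl/fl and at 64.2, 72.9 and 110 CPM in HFD-fed Lama4 AKO mice, a fitted difference of -0.50 (standard error 0.171, adjusted p = 0.29 by edgeR). Rpl10 differed by 0.49 (adjusted p = 0.31) and Rpl30 by 0.45 (adjusted p = 0.33). Rps27rt had the largest difference, -0.53, at levels of 4.61 to 21.2 CPM. In the 19 mice, the median was -0.01, Rps9 and Rps27rt were called as lower, beside 0.565% of genes, and 2 members were higher and 12 lower at the nominal p, beside 5.3% and 5.83%. With 24 mice, 15 members were past the nominal p without the HFD-fed control replicate 2, and 1 to 3 without the HFD-fed controls 3, 4 or 6 or the HFD-fed knockouts 1, 3, 4, 5 or 6. A single member was called without the HFD-fed knockout 2. All 8 macrophage markers had a higher fitted level in the knockouts, with a median of 0.50 and none at the nominal p, and 3 of 6 adipocyte markers were lower at that p. T cell markers had 2 fitted values higher and 4 lower, with a median of -0.10.

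The interaction asks whether the effect of diet differed between genotypes. It was above 0 in 76 of 84 members, beside 47.8% of all genes, with a median of 0.59 on the log2 scale against -0.03 over all genes. Rpl30 was the only member called, beside 0.386% of genes, and it did not pass the adjusted p (0.22 by edgeR, the lowest of all members). At the nominal p 38 members were above 0 and 1 below, beside 6.82% and 8.74% of genes. Limma-voom called 0 and DESeq2 called 4, with 42 and 38 at the nominal p.

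Rpl30, of the large subunit (chromosome 15, 34440505 to 34443640), was at 149, 340 and 451 CPM in chow-fed Lama4 fl/fl and 136, 213 and 275 CPM in chow-fed Lama4 AKO mice. On HFD it was at 199, 247 and 268 CPM in Lama4 fl/fl and 243, 319 and 438 CPM in Lama4 AKO mice. The medians thus stood in opposite order on the 2 diets. Its interaction was 1.13 (standard error 0.3, adjusted p = 0.22 by edgeR). Rps27a had the largest interaction, 1.51 (standard error 0.431, adjusted p = 0.23), followed by Rpl39 at 1.17 and Rpl23 at 1.16. Rps29, of the small subunit, had 1.12 (adjusted p = 0.24). The only member below 0 at the nominal p was Rpl6, at -0.57 (adjusted p = 0.28).

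The Rpl30 call was lost without any of the chow-fed controls 2 to 6, the chow-fed knockouts 1, 3 or 4, the HFD-fed controls 1 and 3 to 6, or the HFD-fed knockouts 1 and 3 to 6, with 0 members called each time. Without the chow-fed control 1, 10 members were called, without the chow-fed knockout 2, 2 members, and without the HFD-fed control 2, 4 members. In the 19 mice the median was 0.47 and Rpl35 was the member called, beside 0.68% of genes, with 18 members above 0 and 4 below at the nominal p, beside 5.62% and 6.62%. The interaction was above 0 for 8 of 8 macrophage markers, with a median of 1.05 and none at the nominal p. Mast cell markers had 3 above 0 and 1 below (median 1.44). T cell markers had 1 above and 5 below (median -0.50), and B cell and plasma cell markers 0 and 6 (median -0.36). Adipocyte markers had 0 above and 6 below (median -0.93), with Lep at the nominal p (-2.38). Endothelial markers had 0 and 4 (median -0.79) and mesothelial markers 0 and 5 (median -1.56), each with 2 below at that p. Stromal progenitor markers had 2 and 2 (median -0.03), with Pdgfra above at that p (0.61). No marker of these lists passed the adjusted p by edgeR.

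**Figure D4:**
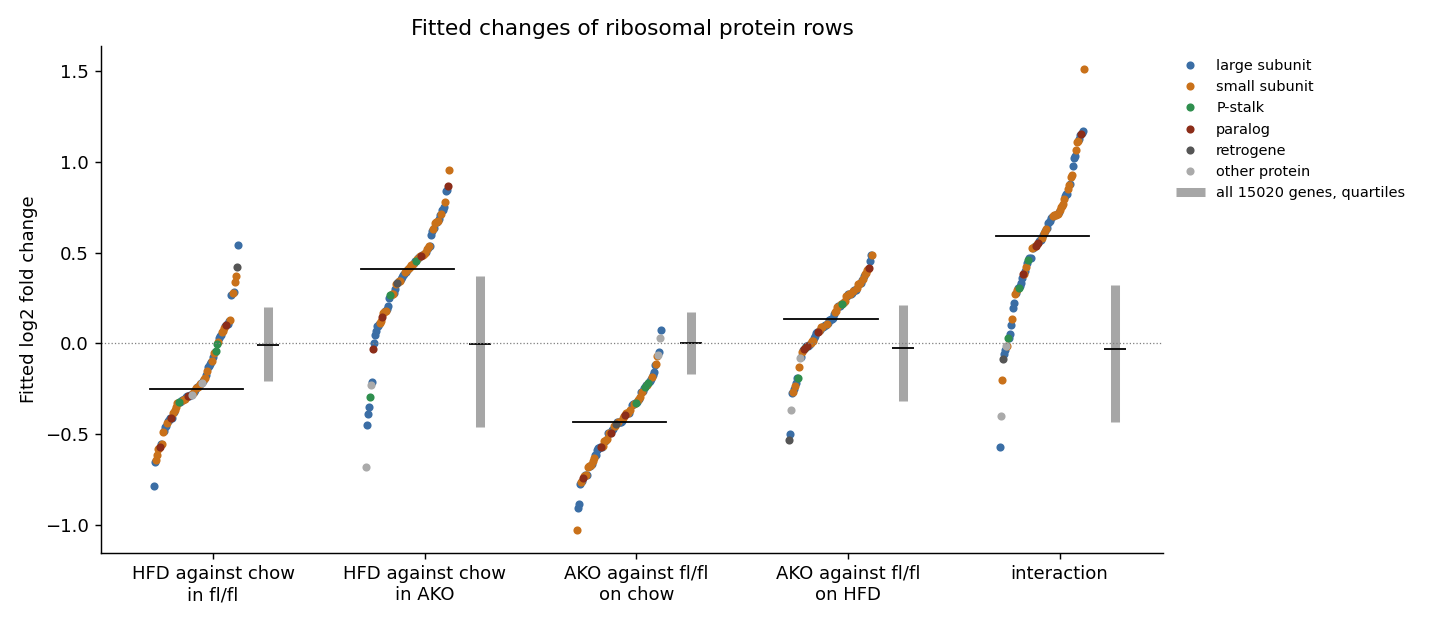
Fitted log2 fold changes (y axis) of the 84 tested members in each comparison (x axis), sorted within it and coloured by class, with lines at the member medians. Grey bars give the quartiles of all 15020 genes with a tick at their median; the member medians lie at -0.25, 0.41, -0.43, 0.13 and 0.59 from left to right.

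**Figure D5:**
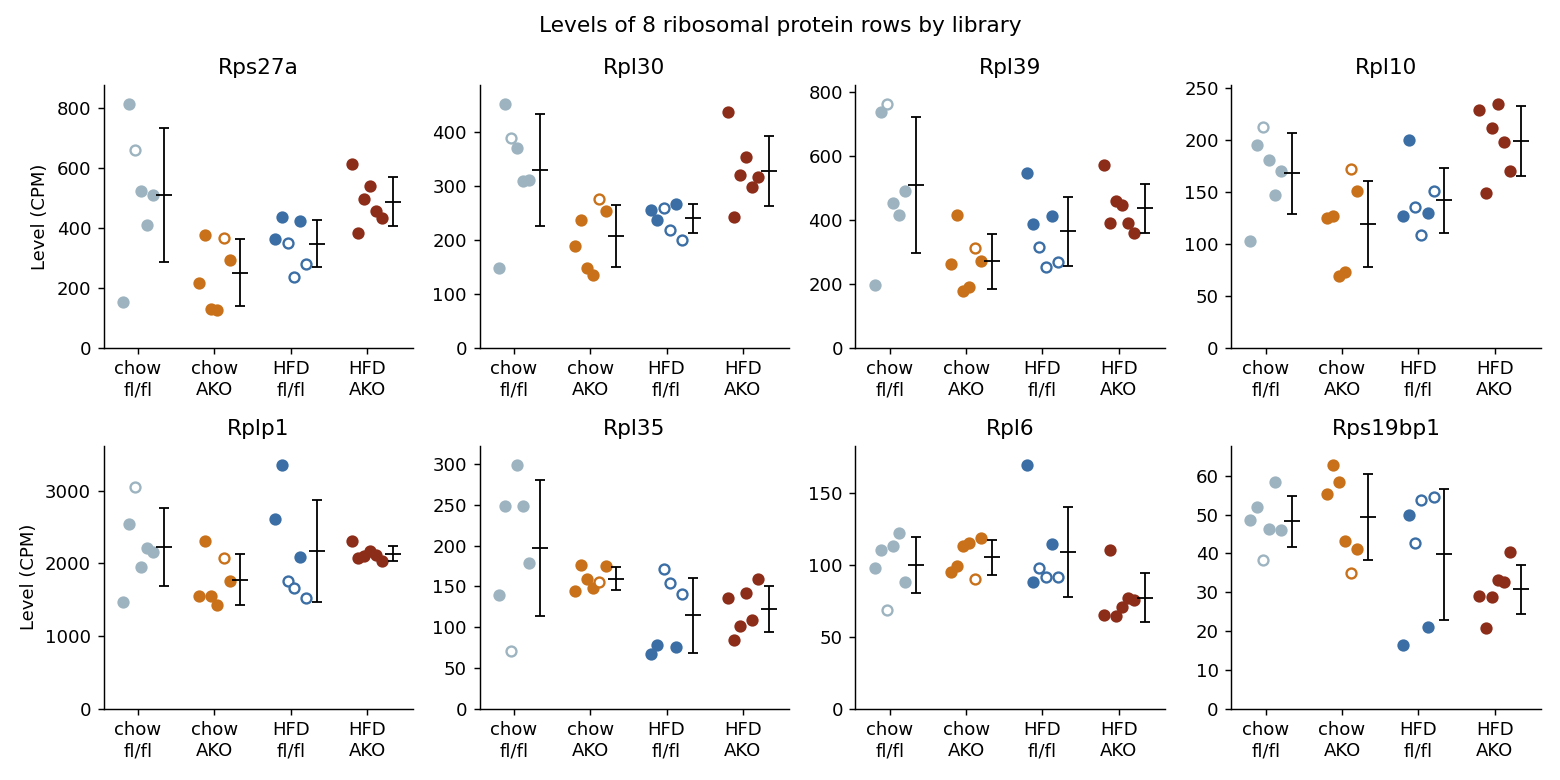
Levels in CPM (y axes, from 0) of 8 members in every library of the 4 groups, with the mean ± SD of 6 libraries and open points for the 5 mice that the set of 19 leaves out. Rps27a, Rpl30, Rpl39 and Rpl10 share a pattern over libraries, which Rpl35, Rpl6 and Rps19bp1 do not follow, and HFD-fed Lama4 AKO libraries hold Rplp1 within 2032 to 2311 CPM.

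Core genes with and without the pyrimidine run were set side by side. The 22 core genes with a run and the 35 without had median log2 fold changes of -0.36 and -0.47 between genotypes on chow, and of 0.32 and 0.43 between diets in Lama4 AKO mice. Both sets pointed the same way in each comparison, and no test was made over genes.

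Some members stood apart in more than a single comparison. Rplp2 correlated with the other members at 0.17 only, unlike its P-stalk partners Rplp0 and Rplp1 at 0.93 and 0.88. It ran from 302 to 1152 CPM in HFD-fed controls and from 350 to 949 CPM in HFD-fed knockouts, and no comparison passed the nominal p for it. Rpl35 had fitted values below 0 for HFD in both genotypes, -0.79 and -0.39. Rpl6 and Rps19bp1 shared no window with other genes, Rplp2 shared 6.37% and Rpl35 shared 96.0%, so the level of Rpl35 is uncertain.

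Paralogs were compared with their partners by the log2 ratio of CPM plus 0.5, with two-sided exact permutation tests over mice. Of 9 pairs listed, 6 had both rows and enough reads, which gave 24 tests, and the smallest p that 6 against 6 mice allow is 0.00216. Every paralog stood below its partner in mean ratio. Rps27l, a p53-inducible relative of Rps27, was closest, with mean log2 ratios of -1.36 ± 0.221 in chow-fed controls, -1.18 ± 0.376 in chow-fed knockouts, -1.18 ± 0.308 in HFD-fed controls and -1.29 ± 0.312 in HFD-fed knockouts (SD, n = 6). Rpl39l was farthest, at -8.21 to -8.78, and at or below 1.89 CPM in every library.

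In Lama4 AKO mice, the ratio of Rpl7l1 to Rpl7 was -3.01 ± 0.247 on chow and -3.62 ± 0.133 on HFD (SD, n = 6). No library of the HFD group reached the range of the chow group. The difference of -0.61 had the smallest p the design allows (exact permutation p = 0.00216, adjusted p = 0.0519 over the 24 tests). Rpl7 went from a median of 493 to 659 CPM and Rpl7l1 from 62.7 to 54.4 CPM. Rpl7 correlated with the other members at 0.89 and Rpl7l1 at 0.20, so the ratio also carries the change of the members as a whole. The ratio of Rps4l, whose row has no symbol in the deposited table and was named from GENCODE, to Rps4x differed by -1.16 in the same comparison (exact permutation p = 0.00649, adjusted p = 0.0779). The ratio of Rpl22l1 to Rpl22 differed by -0.44 there (exact permutation p = 0.0455, adjusted p = 0.229). Between genotypes on chow, Rpl7l1 to Rpl7 differed by 0.46 and Rpl36al to Rpl36a by 0.35 (exact permutation p of 0.0346 and 0.0476, adjusted p = 0.229 for both). None of the 24 passed the adjusted threshold, and 5 had an exact p of at most 0.05. That number was 2 without the chow-fed knockouts 1, 3 or 4 and 3 without the chow-fed controls 2, 3, 5 or 6.

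Other genes of translation were taken from lists chosen with the members. Rack1, a ribosome-bound scaffold, was higher on HFD in Lama4 AKO mice at a nominal p of 0.0398, with a log2 fold change of 0.47. Elongation factors and other TOP mRNAs gave 16 tested genes. On chow 5 of them were lower in Lama4 AKO mice at the nominal p and 0 higher, beside 3.22% and 2.62% of all genes, led by Naca, of the nascent chain binding complex, at -0.64 (adjusted p = 0.73 by edgeR). On HFD in Lama4 AKO mice, 4 of them rose and 1 fell at the adjusted p, beside 22.1% of all genes. Tpt1 rose by 0.70 (adjusted p = 0.0273 by edgeR) and Naca by 0.67 (adjusted p = 0.0294), while Pabpc1, the cytoplasmic poly(A) binding protein, had a change of -1.46 (adjusted p = 0.0205).

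Of 32 tested genes of ribosome assembly, 8 fell and 0 rose at the adjusted p on HFD in Lama4 AKO mice, where 22.1% of all genes passed, so the count is near that of all genes. By fitted level 14 of the 32 were higher and 18 lower, and their median log2 fold change was -0.19 where that of the members was 0.41. Nolc1, a nucleolar chaperone, changed by -0.76 (adjusted p = 0.0179), Wdr12, of the large subunit assembly complex with Pes1 and Bop1, by -0.70 (adjusted p = 0.0179), and Nop10, of the pseudouridylation particles, by -1.06 (adjusted p = 0.0187). Between genotypes on chow, 2 of the 32 were higher at the nominal p and 0 lower, beside the same 2.62% and 3.22%, with a median of 0.05 where that of the members was -0.43. Of 15 tested genes of mTORC1 and TOP control, 2 rose and 2 fell at the adjusted p in HFD-fed against chow-fed Lama4 AKO mice, again beside 22.1% of all genes and near that share. Yy1, a transcription factor, changed by -0.77 (adjusted p = 0.0174) and Rps6kb1, the S6 kinase, by -0.82 (adjusted p = 0.0227). Rps6kb2, its paralog, rose by 0.48 (adjusted p = 0.0208) and Tsc1, an inhibitor of mTORC1, by 0.49 (adjusted p = 0.0227). On chow Larp1 differed by 0.48 between genotypes (adjusted p = 0.76 by edgeR).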

How the data were processed

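RNA from the eWAT of 24 mice was sequenced from 3′ ends. The authors mapped and counted reads with the Lexogen QuantSeq pipeline against GRCm38 and deposited raw counts per gene. They also deposited a normalized signal, the counts of each library divided by a DESeq2 size factor (the submitters' processing notes name DESeq2 1.30 and R 4.0.3). That table gave only symbols and positions here. The counts of all libraries were fitted in edgeR 4.0.16 (R 4.3.3) with TMM factors, a coefficient per group and the quasi-likelihood test, for the 15020 genes that reached 1 CPM in 3 or more libraries, and p-values were adjusted (Benjamini-Hochberg) over these genes. Standard errors are the absolute log2 fold change over the root of F. A call needed a change of 1.5-fold or more, a nominal p no higher than 0.001 and 2 CPM or more on average in the higher group. Limma 3.58.1 (voom), DESeq2 1.42.0, other scalings, filters, a set of 19 mice and leaving out each mouse were alternatives. The 19 mice come from an inference of an earlier analysis, since the sources used here do not name those the study kept. The scripts were tested on simulated data. Named members are those called, the 3 of lowest p and the 3 of largest change per comparison, paralogs with their partners, the 3 highest and 3 lowest by level, and those most and least like the other members. Others are named to complete a count. The members and lists were chosen with earlier results of these data known. Each library is a mouse by its label. An edgeR p-value sets a group difference against the spread between mice, estimated over all 4 groups with information shared across genes. A floor of 3 counts was 0.160 to 0.538 CPM, for counting error only. Promoter windows are from RefSeq (GRCm38.p6) and transcripts from GENCODE mouse release M21. Results for some members are not reported here.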

Additional observations from a re-analysis of the deposited data

Results flagged for a closer look

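In groups of 6 mice, a member's highest or lowest mouse was set against the range of the group with Dixon's test at the 95% level. Of 132 groups looked at, 15 had such a mouse. Chance alone gives about 1 in 20 for a single group. Members move together within a library, so the 132 are not independent and the count cannot be set against that rate. The chow-fed Lama4 fl/fl replicate 1 was far below its group for Rpl28 at 144 CPM, Rpl9 at 254 CPM, Rps14 at 1040 CPM and Rps4x at 86.7 CPM, and replicate 3 of that group was low for Rplp2 at 619 CPM. The chow-fed Lama4 AKO replicate 2 was high for the paralogs Rpl22l1 at 153 CPM and Rps27l at 241 CPM. The HFD-fed Lama4 fl/fl replicate 2 was high for Rpl28 at 309 CPM, Rpl34 at 955 CPM, Rplp0 at 482 CPM, Rps27 at 548 CPM and Rps29 at 1696 CPM, and replicate 1 of that group was high for Rpl6 at 169 CPM. In HFD-fed Lama4 AKO mice, replicate 1 was high for Rpl36a at 883 CPM and replicate 2 for Rpl6 at 110 CPM.

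The effect of diet on Rpl30 differed between genotypes by 1.13 on the log2 scale at the nominal threshold (edgeR interaction term, adjusted p = 0.22).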

How the results depend on the processing

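The median member change kept its sign under the alternatives run in each comparison, except between genotypes on HFD, where it was 0.13 with 24 mice and -0.01 with the 19. Across alternatives it ran from -0.55 to -0.36 between genotypes on chow, from 0.33 to 0.49 between diets in Lama4 AKO, from -0.37 to -0.05 in Lama4 fl/fl and from 0.47 to 0.70 for the interaction. Counts of members moved more. Those below with a mouse left out or with another tool, scaling or filter have no share of all genes beside them. In the order diet in Lama4 fl/fl, diet in Lama4 AKO, genotype on chow, genotype on HFD and interaction, leaving out a mouse gave 0 to 1, 0 to 2, 0 to 12, 0 to 1 and 0 to 10 called members, and 5 to 33, 22 to 47, 25 to 58, 1 to 15 and 30 to 56 at the nominal p. The interaction call was 0 with limma-voom, with RLE size factors, without a filter and at an adjusted p, and 4 with DESeq2, which called 2 for diet in Lama4 AKO and 2 for genotype on chow. RLE size factors or no filter gave 2 members at the nominal p for genotype on HFD. The 19 mice gave 8 called for diet in Lama4 fl/fl, 3 in Lama4 AKO and 2 for genotype on HFD, and 23 (diet, Lama4 fl/fl), 14 (genotype, HFD) and 22 (interaction) at the nominal p. With limma-voom on them, 8, 5 and 2 were called, and 25, 52 (diet, Lama4 AKO), 13 and 24 were at the nominal p. Fits of the 2 groups alone gave 4 at the nominal p for diet in Lama4 fl/fl and 1 called in Lama4 AKO. An adjusted p in place of the nominal gave 11 called in Lama4 AKO. The cause of these moves was not tested.

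Groups share replicate numbers, and correlations of same-numbered mice ran from -0.483 to 0.714. Correlations of differently numbered mice were not set beside these, so whether the numbers pair the mice was not tested. With the replicate block, 3 members were at the nominal p for genotype on HFD and 0 were called in the interaction.

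Of the paralog ratios, 2 to 7 had an exact p of at most 0.05 when a mouse was left out. With the 19 mice the sign turned for Rpl22l1 to Rpl22 (0.56), Rpl7l1 to Rpl7 (0.27) and Rps4l to Rps4x (0.28) between genotypes on HFD, and for Rpl39l to Rpl39 (-0.12) and Rpl7l1 to Rpl7 (-0.57) between diets in Lama4 fl/fl. Leaving out a mouse, Rpl22l1 to Rpl22 ran from -0.12 to 0.064 between genotypes on chow and from -0.37 to 0.045 on HFD, Rpl39l to Rpl39 from -0.40 to 0.16 on HFD, and Rpl7l1 to Rpl7 from -0.085 to 0.18 between diets in Lama4 fl/fl. Depth limits Rpl39l, at 0 to 1.89 CPM where 3 counts are 0.160 to 0.538 CPM.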
